A study of Mus musculus with 96 samples.

Results

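The 6 keratin genes, Krt7, Krt8, Krt18, Krt19, Krt4 and Krt13, were followed in single daughter cells of horizontal basal cells (HBCs), a reserve stem cell of the olfactory epithelium (OE) that rests until injury. All 6 members were found by symbol among the 55487 genes of the deposited table. The table holds 96 cells, which are the daughter cells of 48 divisions. The cells came from wild-type mice of 6 to 8 weeks whose OE was dissected 2 days after an injection of methimazole, a drug that strips the OE down to its HBCs. The HBCs were grown as a primary culture on extracellular matrix, and each daughter cell was picked by mouth pipette after division with its sister noted. RNA was read by G&T-seq, in which polyadenylated RNA of 1 cell is copied by a Smart-seq2 protocol, with ERCC spike-in transcripts added to the lysate. Every cell therefore shared the genotype, the injury and the kind of culture, and there was no untreated group. The labels name neither the mouse nor the culture of a cell, so that the 96 cells stand as 1 sample of 1 group. Every share, fold and correlation here describes these cells, and no test between groups was possible.

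Keratins are the intermediate filament proteins of epithelial cells. A filament is built of heterodimers, each of a type I keratin, whose genes lie mostly on mouse chromosome 11, and a type II keratin, whose genes lie on chromosome 15. Simple epithelia and ducts use the type II keratins Krt8 and Krt7 with the type I keratins Krt18 and Krt19. Basal cells of stratified epithelia, HBCs among them, are instead known for Krt5 and Krt14, and wounded or activated epithelium for Krt6a, Krt16 and Krt17. Krt4 and its type I partner Krt13 mark the layers above the basal cells in mucosal epithelia, and the hillocks of the airway, small stratified patches, are recognised by them. In the intact OE, Krt8 and Krt18 are markers of sustentacular cells and of the ducts and glands of Bowman, whereas resting HBCs are known for Krt5 and Krt14.

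The 6 genes lay in the 2 keratin clusters of GRCm38. Krt7 (ENSMUSG00000023039) spans chromosome 15 from 101411043 to 101430313 on the plus strand. Krt4 (ENSMUSG00000059668) spans 101918535 to 101924735 and Krt8 (ENSMUSG00000049382) spans 101996698 to 102004482, both on the minus strand of chromosome 15. Krt18 (ENSMUSG00000023043) is the type I gene that lies at the end of the type II cluster, on the plus strand from 102028180 to 102032027, and 23697 bases separate it from Krt8. Krt13 (ENSMUSG00000044041) spans chromosome 11 from 100117327 to 100121566 and Krt19 (ENSMUSG00000020911) spans 100140810 to 100148665, both on the minus strand. Krt8 and Krt18 therefore point away from each other, and their starts face the same stretch of DNA.

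The sequences around the starts of Krt8 and Krt18 are shown because these were the 2 members whose levels varied together, as described with the correlations. Both come from RefSeq on GRCm38.p6, are written in the direction of transcription, and hold 250 bases before and 50 after the RefSeq start. The starts by the gene spans above, 102004482 for Krt8 and 102028180 for Krt18, lie upstream of the RefSeq starts. The Krt8 window is chr15:102004293-102004592 on the minus strand and the Krt18 window is chr15:102027966-102028265 on the plus strand. Capitals mark matches to 4 motifs searched on both strands, which were the TATA box as TATAAA, the GC box as GGGCGG, the CCAAT box, and the binding site of AP-1 factors as TGANTCA.
Krt8: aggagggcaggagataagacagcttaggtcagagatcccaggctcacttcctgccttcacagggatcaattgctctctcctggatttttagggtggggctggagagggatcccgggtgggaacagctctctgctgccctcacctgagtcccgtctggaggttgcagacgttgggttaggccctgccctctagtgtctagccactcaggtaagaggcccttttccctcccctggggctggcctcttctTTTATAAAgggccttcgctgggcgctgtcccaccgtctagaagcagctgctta
Krt18: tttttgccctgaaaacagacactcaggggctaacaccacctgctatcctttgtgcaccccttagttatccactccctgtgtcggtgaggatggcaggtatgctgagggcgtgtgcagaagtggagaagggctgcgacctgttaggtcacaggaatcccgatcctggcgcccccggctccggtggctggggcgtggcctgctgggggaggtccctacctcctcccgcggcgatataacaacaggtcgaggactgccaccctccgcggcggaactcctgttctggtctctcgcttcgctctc
The capitals in Krt8 are 2 overlapping matches to TATAAA, 1 on each strand, at the RefSeq start, which lies inside the gene span given above. The Krt18 window held none of the 4 motifs. Among 32841 RefSeq windows of 300 bases, the TATA box was found in 13.6%, the GC box in 35.7%, the CCAAT box in 37.4% and the AP-1 site in 7.81%. Windows were found for 4 of the 6 members, with 2 windows for Krt13.

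The depth on genes ran from 29454150 to 44849003 reads a cell (median 36152760), and the ERCC transcripts took 1.06% to 5.75% of the counted reads. The cells carried the identity of HBCs by the markers Trp63, Krt5 and Krt14, which were counted in all 96 cells. Krt15, a further basal marker, was counted in 68 cells. Several markers of other cells of the nose were at or near 0. Of the 6 sustentacular markers, Cyp1a2 and Ermn were at 0 in every cell and Cyp2g1 was counted in 1 cell. Cbr2 and Sox2 of that list, and Aqp5 of the 3 gland markers, were counted in all cells. Their median TPM was 726, 13.1 and 1007, so that Cbr2 and Aqp5 lay above Trp63. Sox10 of the gland list, Foxi1 of the microvillar list, Kit of the neuronal list, Scgb1a1 and Muc5b of the airway list and Vim of the stromal list were at 0 throughout. These lists were not silent as a whole. Sox9 of the gland list was counted in 78 cells and Cftr of the microvillar list in 12. Gap43 and Lgr5 of the neuronal list were counted in 22 and 14. Cd68 and Pecam1, listed with Vim, were counted in 74 and 92 cells, with 10 or more reads in 57 and 5. Some cell counted 7 of the 8 neuronal, 4 of the 6 airway and 5 of the 6 genes listed with Vim. The cells fell into 12 sets of 8 by the names of their deposited files, and whether a set was handled together is not stated. Pair 4 stood apart from the others, and results that rest on it are given with and without it.

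The simple keratins were counted in every cell. Krt7, Krt8, Krt18 and Krt19 each had 10 or more reads in 96 of 96 cells (exact Clopper-Pearson 95% interval of the share, 96.2% to 100%). Intervals of this kind cover only the counting of cells or pairs. Those for a share of cells take sisters as independent, and are too narrow where sisters are alike. Of all genes in the table, 8.35% were counted in all 96 cells. Counts were normalized to the ERCC transcripts so that they follow the RNA of a cell, and levels between genes are given as TPM, which is scaled for length.

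Krt19, a type I keratin of ducts and of many progenitor layers, had the highest median among the members. Its TPM was 325 in the lowest cell, 1894 in the median cell and 11423 in the highest. The highest and the lowest of these were the 2 sisters of pair 4. Krt18, the type I partner of Krt8, had a TPM of 188 in the lowest cell, 1394 in the median cell and 4527 in the highest. The 2 lowest cells for Krt18 were again sisters, those of pair 46, with 223 and 188 TPM. Krt8, the type II keratin of simple epithelia, ran from 376 through a median of 1220 to 3344 TPM. It was the most even of the 6 members, its highest cell being 8.88 times its lowest. The order of these 3 was not firm, since Krt19 exceeded Krt18 in 62 of 96 cells and Krt18 exceeded Krt8 in 64.

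Krt7, the second type II simple keratin, was lower and far less even. Its TPM was 0.525 in the lowest cell, 254 in the median cell and 1109 in the highest, so that the extremes lay 2113-fold apart. Krt8 exceeded Krt7 in 96 of 96 cells. A tail of low cells set Krt7 apart from Krt8, Krt18 and Krt19. Under 1000 reads of Krt7 were counted in 8 cells, and the next cell above them had 1182. The lowest were the cells with 49 reads in pair 29, 79 in pair 45, 84 in pair 13, 108 in pair 39 and 143 in pair 48. These 8 cells came from 6 pairs: both sisters were under 1000 reads in 2 pairs, and 1 sister was in 4 pairs. This split depends on the cutoff, since the cell with 1182 reads was the other sister of pair 48. The next cell above it had 2255.

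**Figure D1:**
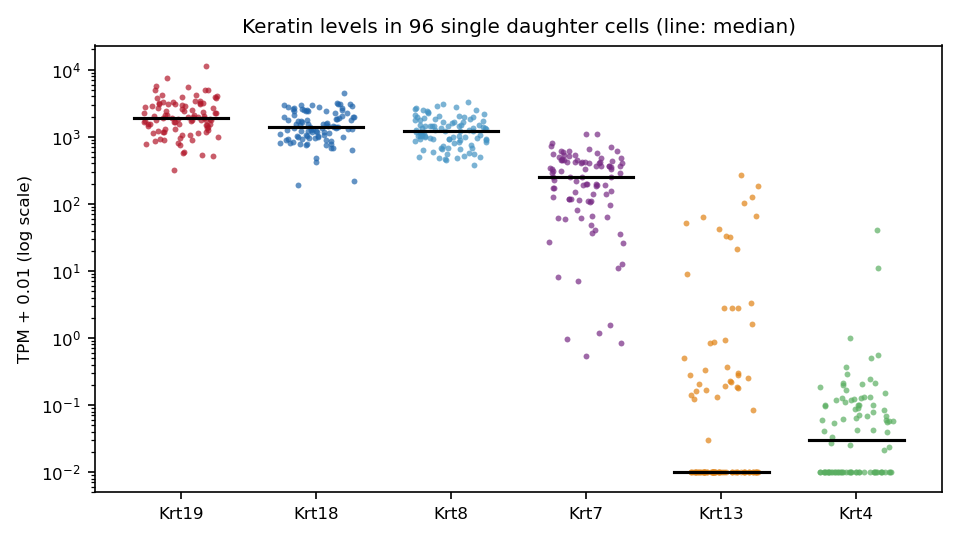
Level of each keratin in each of the 96 cells, as TPM + 0.01 on a log axis, with 1 point per cell and a line at the median. Krt19, Krt18 and Krt8 overlap between 188 and 11423 TPM, Krt7 has a tail of cells down to 0.525 TPM, and most cells sit at or near 0 for Krt13 and Krt4.

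The simple keratins stood beside still higher basal and wound keratins. The median TPM was 4647 for Krt17, 3672 for Krt14, 2801 for Krt6a and 2090 for Krt5. The 4 simple keratins made up a median of 26.9% of the TPM of 54 keratin genes, from 14.8% in the lowest cell to 74.2% in the highest. That highest share was in daughter 2 of pair 4, in which Krt8 and Krt18 alone made up 67.8% of keratin TPM, against a median over cells of 15.2%.

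Krt13 and Krt4 were found in few cells. Krt13 was counted in 40 of 96 cells (41.7%, exact 95% interval 31.7% to 52.2%), had 10 or more reads in 27 and reached a TPM of 1 in 17. That interval takes the cells as independent, although both sisters were at 0 in 20 of 48 pairs. The highest cell for Krt13, daughter 2 of pair 42, held 9962 reads and 268 TPM. Krt4 was counted in 52 of 96 cells (54.2%, exact 95% interval 43.7% to 64.4%), but 43 of these had 1 to 9 reads, 9 had 10 or more, and 2 reached a TPM of 1. Low counts of this kind were common among keratins of skin: Krt79 was counted in 82 cells, with 10 or more reads in 9 and a maximum of 33. Krt1, the type II keratin of the upper epidermis, was counted in 69 cells, with 10 or more reads in 8. A count of Krt4 under 10 reads was therefore not read as expression. Krt4 had over 100 reads in 2 cells, with 2152 reads in daughter 2 of pair 3 and 442 in daughter 1 of pair 34.

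The other hillock markers were not limited to the cells with Krt13 or Krt4. Ecm1, Lgals3, Anxa1 and S100a11 were counted in all 96 cells and Cldn3 in 93, with median TPM of 69.9, 592, 1246, 3628 and 37.6. Their Spearman correlations with Krt13 over the 96 cells lay between 0.01 for S100a11 and 0.18 for Lgals3. With Krt4 they lay between -0.11 for Ecm1 and 0.04 for Anxa1. Krt4 and Krt13 themselves, partners in one filament, had a correlation of 0.08. Of the 9 cells with 10 or more Krt4 reads, 3 also had 10 or more of Krt13: daughter 1 of pairs 10, 25 and 47, with 22, 45 and 14 reads of Krt4 and 67, 1485 and 4724 of Krt13.

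The design allows each member to be compared within a division. A pair was called apart when the higher sister exceeded the lower one 1.5-fold or more in normalized count, with 1 added to each. The technical error was taken from the 5 ERCC transcripts nearest in mean TPM, each scaled by the other ERCC transcripts.

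Krt8 was apart in 15 of 48 pairs (31.3%, exact 95% interval 18.7% to 46.3%) and the median fold between sisters was 1.35. Krt18 was apart in 17 (35.4%, 22.2% to 50.5%), also with a median fold of 1.35, and Krt19 in 16 (33.3%, 20.4% to 48.4%) with 1.35. The 5 nearest ERCC transcripts were apart in 0 to 11 pairs for each of these 3 genes. Krt7 was apart in 29 pairs (60.4%, 45.3% to 74.2%), with a median fold of 1.70, beside 8 to 24 pairs for its nearest ERCC transcripts. For each of the 4 simple keratins the number of pairs lay above that of the highest of its 5 spike-ins, but the exact interval of each included the share of that spike-in. Differences of this size were the rule for other genes. At least 24 pairs were apart for 79.5% of the 14463 genes with 10 or more reads in at least 10% of cells, and for 59.8% of those with a mean of 100 CPM (counts scaled to the library total) or more. The median gene in the latter group was apart in 25 pairs, and the 5th percentile was 11.

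Among the 4 simple keratins, the largest differences between sisters were found in Krt7 and Krt19. In pair 29, the daughters had 49 and 9867 reads of Krt7, a 246-fold difference after normalization. Both sisters of this pair expressed Krt8, with 25157 and 70624 reads. Daughter 1, the one low in Krt7, was also low in normalized count for Krt8, Krt18 and Krt19, ranking 94th, 86th and 87th from the top. It had the highest share of ERCC reads in the series, 5.75%. In TPM the Krt7 difference of this pair was 213-fold. In pair 13, the daughters had 3521 and 84 reads of Krt7, a 47.1-fold difference, while Krt8 was within 1.26-fold, Krt18 within 1.20-fold and Krt19 within 1.26-fold. Pair 13 is thus a division in which Krt7 differed between sisters that were nearly equal in the other simple keratins. For Krt8 the largest fold was 4.31, in pair 47, of which daughter 1 had the lowest share of ERCC reads in the series, 1.06%. On the TPM scale, which does not use the ERCC transcripts as a reference, the largest fold of Krt8 was instead 2.91, in pair 29, with 569 and 1655 TPM. For Krt18 the largest fold was 4.95, in pair 23, which was also the widest on the TPM scale at 3.14. For Krt19 it was 56.3 in pair 4 and 4.56 in pair 17, the next highest.

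**Figure D2:**
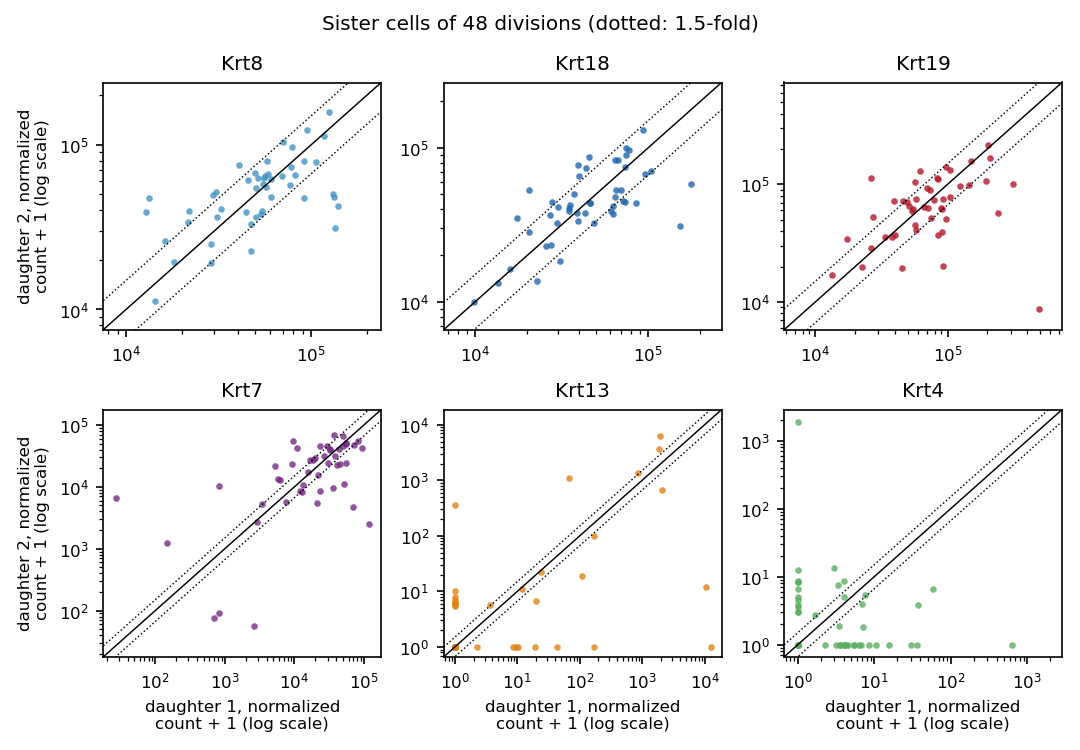
Normalized count + 1 of daughter 2 against daughter 1 for each keratin in 48 pairs, both axes log, with the line of equality solid and the 1.5-fold limits dotted. Krt8, Krt18 and Krt19 lie along the line with 15, 17 and 16 pairs outside the limits, Krt7 has 29 outside, and Krt13 and Krt4 have pairs in which 1 sister is at 0.

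In 6 of 48 pairs all 4 simple keratins were apart, and in each of them the same sister was the higher for all 4. These were pairs 4, 22, 23, 29, 31 and 47. With counts scaled to the library total instead of the ERCC transcripts, 4 pairs had all 4 genes apart and 3 of those went in 1 direction. In 7 pairs none of the 4 genes was apart, and in 21 pairs 1 gene was.

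Pair 4 held the widest split of keratins. Daughter 1 had the highest normalized count of all 96 cells for Krt7, Krt18 and Krt19, with 119464, 179620 and 497114 reads. It was also the highest for the wound keratins Krt16, with 93688 reads, and Krt6a, with 787008, and for the squamous genes Cnfn, Sbsn and Krtdap, with 423062, 34593 and 4113. Not every gene of that kind went with it: Sprr2a1, a precursor of the cornified envelope, had 109840 reads in daughter 1 and 1151928 in daughter 2, and the keratin Krt23 had 6009 and 50147. Its sister had 3678 reads of Krt7 and 12857 of Krt19, and the lowest normalized count of all cells for Krt19, Krt5, Krt14, Krt6a, Krt16 and Krt17. Those last 5 genes had 6760, 691, 905, 4 and 769 reads in it. Yet this sister had 70750 reads of Krt8 and 86002 of Krt18, which put it near the middle of the 96 cells, the 58th and the 34th from the top in normalized count. It ranked 2nd from the top for Aqp5, the water channel of glands, with 326492 reads, and 5th for Cbr2, with 171926, but its sister ranked 1st and 4th for these. Trp63, the transcription factor that maintains basal cells, had 7524 reads in daughter 1 and 1403 in daughter 2. Mki67, a proliferation marker, was low in both, with 127 and 120 reads against a median of 16647.5. Total reads on genes were 44849003 and 38588945, the highest of the series in daughter 1, and the share of mitochondrial reads was 2.00% and 3.84%, the latter the highest of the series. The part of these in the split was not tested.

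Pair 46 showed the opposite arrangement for Krt18. Its daughters had 6610 and 5359 reads of Krt18, the 2 lowest in the series, beside 61273 and 25725 reads of Krt8. Krt18 was within 1.00-fold between these sisters after normalization. The ratio of Krt18 to Krt8 on the TPM scale fell to 0.147 in daughter 1, the lowest of all cells. Krt19 was high in both, with 136212 and 117409 reads, and the ratio of Krt19 to Krt18 in daughter 2, 20.0, was the highest of all cells. Trp63 had 19637 reads in daughter 1 and 37 in daughter 2, the highest and the lowest normalized count of all cells. Of the squamous genes, daughter 1 ranked 1st for Sprr1b, Sprr2a1 and Tgm1 and 2nd for Cnfn and Sbsn. It ranked 7th for Krt1 and 34th for Krt10, and had 0 reads of Ivl, Lor, Flg and Krtdap. Mki67 had 64 reads in daughter 1.

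How alike sisters were, relative to unrelated cells, was measured by the intraclass correlation over the 48 pairs on log2(CPM + 1), which is 1 when sisters are equal and pairs differ. It was 0.75 for Krt18, 0.64 for Krt13, 0.63 for Krt8, 0.60 for Krt7, 0.37 for Krt19 and -0.06 for Krt4. Over the 14463 genes the median was 0.11 and the 5th and 95th percentiles were -0.15 and 0.49, and 4.4% of genes reached 0.5. Among the 2100 of these genes with a mean of 100 CPM or more, 15.6% reached 0.5 and the median was 0.24. Krt18 was exceeded by 34 of all genes tested, Krt13 by 151, Krt8 by 184 and Krt7 by 246. For Krt13, both daughters had 0 reads in 20 of 48 pairs, and its value rests in part on these. Of the 18 pairs with 10 or more Krt13 reads in a daughter, 16 were 1.5-fold or more apart. Without set 11, which holds pairs 41 and 42, the value for Krt13 was 0.49. The value for Krt19 rested on pair 4: without that pair it was 0.64.

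The sisters of a pair share a set of 8 cells, so that differences between sets would add to this likeness. Differences between sets accounted for 29.5% of the variance of Krt19, 22.8% for Krt8, 19.8% for Krt18, 18.4% for Krt7 and 21.1% for Krt13. The median was 13.5% over the 14463 genes, with 5th and 95th percentiles of 6.18% and 26.0%, and Krt19 lay above this range. For the 636 of them with an intraclass correlation of 0.5 or more, the median was 21.0%, with percentiles of 10.2% and 38.7%. Krt7, Krt8, Krt18 and Krt13 are among these 636 genes and lay within their central 90%. With its value of 0.37, Krt19 is not among them. With the set means subtracted, the intraclass correlation was 0.68 for Krt18, 0.55 for Krt13, 0.52 for Krt8, 0.51 for Krt7 and 0.11 for Krt19. A set holds 4 pairs, so that this step also removes differences between pairs. For Krt19 it gave 0.43 once pair 4 was left out. Whether sets differed beyond the pairs they hold was not tested.

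Krt8 and Krt18, which form one filament, varied together from cell to cell. Their Spearman correlation over the 96 cells was 0.69 on log2(CPM + 1), and 0.69 when counts were scaled to the ERCC transcripts. The 96 cells are sisters in pairs and not independent, so that the same was computed on 48 pair means, which gave 0.72. On 48 differences between sisters it was 0.54. In each of the 12 sets the correlation was positive, from 0.36 to 0.93. The same sister was higher for both genes in 31 of 48 pairs (64.6%, exact 95% interval 49.5% to 77.8%), an interval that includes 50%.

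On the TPM scale, Krt18 was 1.16 times Krt8 in the median cell, and the central 90% of cells lay between 0.70 and 2.23. The SD over cells of this ratio on the log2 scale was 0.63. It was 1.20 for the ratio of Krt19 to Krt8 and 2.45 for that of Krt7 to Krt8, the 2 genes that themselves varied more between cells.

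**Figure D3:**
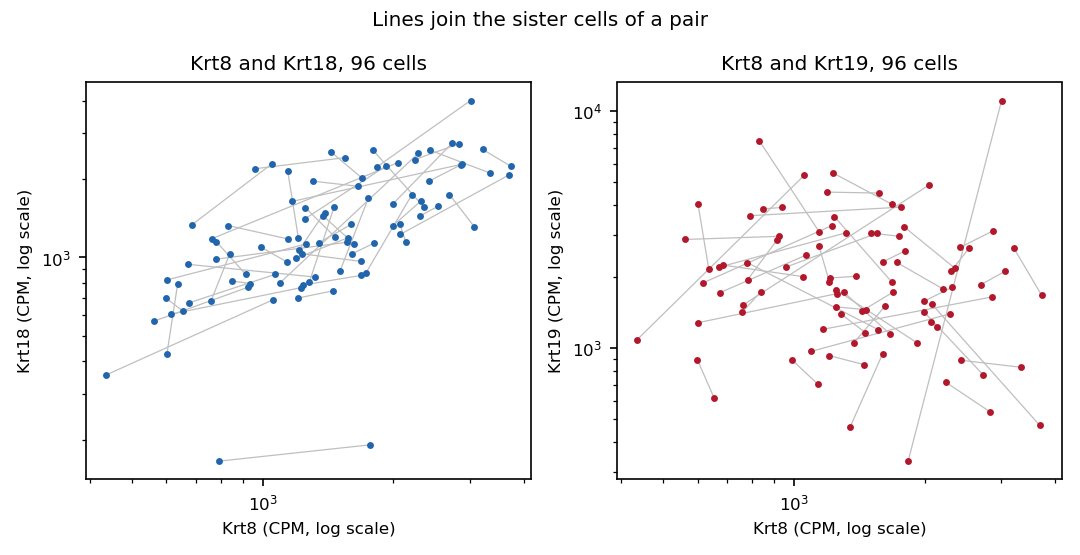
Krt18 (left) and Krt19 (right) against Krt8 in 96 cells, in CPM on log axes, with 1 point per cell and a line joining sisters. Krt18 follows Krt8 with a correlation of 0.69, apart from the 2 low cells of pair 46, whereas Krt19 has a correlation of -0.13 with Krt8.

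The correlations of all other pairs of members lay between -0.20 and 0.22. Krt7, which can also pair with Krt18 and Krt19, had correlations of -0.02 with Krt8, 0.06 with Krt18 and 0.04 with Krt19. Those of Krt19 were -0.13 with Krt8 and -0.17 with Krt18. The highest of the remaining values, 0.22, was between Krt19 and Krt13, and the lowest, -0.20, between Krt18 and Krt13. Scaling to the ERCC transcripts, which leaves the total RNA of a cell in the values, brought the 3 correlations of Krt7 with Krt8, Krt18 and Krt19 to 0.18, 0.22 and 0.22. This scaling raised correlations in general, since the medians over all genes tested became 0.13 for Krt8, 0.11 for Krt18, 0.09 for Krt19 and 0.12 for Krt7. Correlations below are on CPM, with the value under ERCC scaling where this changed what they show.

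Krt19 instead varied with most of the basal and wound keratins. Its correlation was 0.56 with Krt14, 0.45 with Krt17, 0.45 with Krt6a, 0.41 with Krt6b, 0.40 with Krt5 and 0.39 with Krt15, but 0.19 with the wound keratin Krt16. Over the 11 of 17 other keratins that passed the filter on low counts, the median correlation with Krt19 was 0.39, beside -0.02 over all genes tested, and with ERCC scaling it was 0.38. The same 11 genes had a median of 0.05 with Krt8, 0.00 with Krt18 and -0.03 with Krt7. With Krt18, Krt14 had a correlation of -0.25 and Krt15 of -0.33, which became -0.07 and -0.24 with ERCC scaling. Without pair 4 the correlation of Krt19 with Krt14 was 0.57, and on differences between sisters it was 0.27. Krt6a and Krt6b are near-identical copies whose reads could be split between them in counting, so that their values are not independent.

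**Figure D4:**
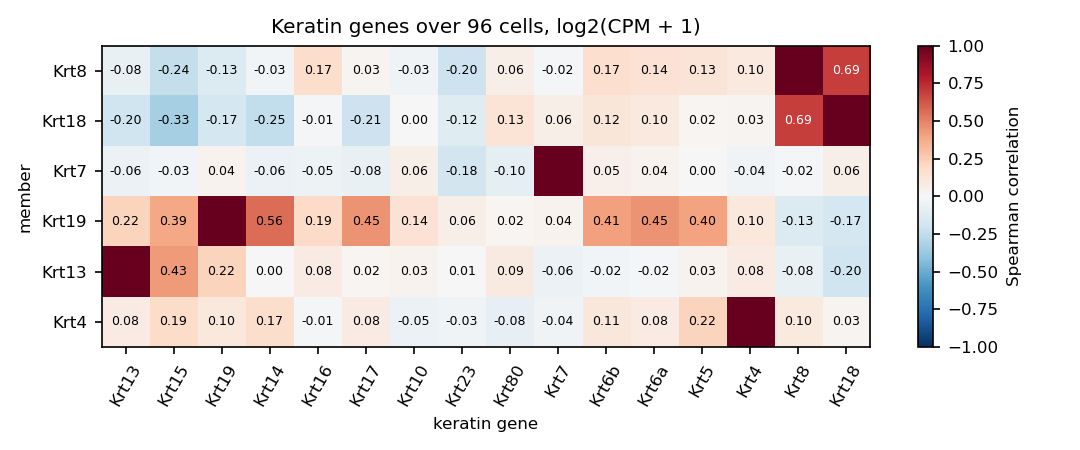
Spearman correlations of the 6 members (rows) with keratins of both clusters (columns, those of chromosome 11 from Krt13 to Krt23 and of chromosome 15 from Krt80 to Krt18) over 96 cells, red positive and blue negative. The Krt8 row is high with Krt18 at 0.69, and the Krt19 row with Krt14 at 0.56, Krt17 at 0.45 and Krt6a at 0.45.

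Neighbouring keratin genes were often correlated on chromosome 11, on which Krt19 lies 4881 bases from Krt15 and 54496 from Krt14. Among adjacent keratin genes that passed the filter, the correlation was 0.43 for Krt13 and Krt15, 0.39 for Krt15 and Krt19, 0.56 for Krt19 and Krt14 and 0.58 for Krt16 and Krt17, but 0.08 for Krt10 and Krt23 and 0.01 for Krt23 and Krt13. On chromosome 15, Krt7 had -0.10 with Krt80 and 0.05 with Krt6b, its neighbours in this list, and Krt8 had 0.05 with Krt76, whereas Krt5 had 0.40 with Krt6a and 0.48 with Krt72. Of 190 combinations of the 20 keratin genes that passed, Krt8 with Krt18 ranked 2nd, after Krt6b with Krt6a at 0.99. The median was 0.13 for the 91 combinations on one chromosome and 0.04 for the 99 across chromosomes.

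Each member was then set against all genes that passed the filter. Krt8 had a correlation of 0.5 or more with 2 of 14462 genes (0.0138%), which were Krt18 and Krt8-ps, an annotated pseudogene of Krt8. Krt18 also had 2 (0.0138%), which were Krt8 and Krt8-ps. The 2 were correlated with Krt8-ps at 0.77 and 0.54. Reads of Krt8 and its pseudogene can be divided between them in counting, and the counts of Krt8-ps, from 39 to 1223, are uncertain for this reason. Krt19 had 3 such genes (0.0207%), Krt14, Anxa2 and Wnt4. Krt7, Krt4 and Krt13 had none (0%). The strongest negative values were for Krt18, with 2 genes at -0.5 or less (0.0138%), H60c at -0.57 and Gsto1 at -0.52, which became -0.40 and -0.24 with ERCC scaling.

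Below that cutoff, the genes nearest to Krt8 were Vcp, an ATPase of protein quality control, at 0.48, Hspa5, the chaperone of the endoplasmic reticulum, at 0.44, Lmna, the nuclear lamin, at 0.42, and Lgals1 at 0.38. Hspa5 was also among the nearest to Krt18, at 0.45, with Ifitm3 at 0.47, Deptor at 0.44 and Ndufb8 at 0.39. Foxa1, a transcription factor of secretory epithelia, was among the lowest for both, at -0.47 with Krt8 and -0.50 with Krt18, but it was counted in only 25 cells. Nearest to Krt19 after those named were Pkp1, a desmosomal plaque protein, at 0.47 and Krt17 at 0.45, and lowest were Larp4b at -0.44, Gclm at -0.43 and Txnrd1 at -0.43, of which Larp4b and Txnrd1 had -0.16 and -0.18 with ERCC scaling. Nearest to Krt7 were Pold1, a DNA polymerase subunit, at 0.41, Dda1 at 0.39, Txnl4a at 0.38, Atad3a at 0.38 and Rad9a at 0.37, and lowest were Tmem120b at -0.47, Acss2 at -0.46 and Il1f9 at -0.43. These are the ends of distributions whose 5th and 95th percentiles lay near -0.2 and 0.2, with 96 cells for 14462 genes. For Krt4 the 5 highest ran from 0.36 to 0.38, and for Krt13 from 0.35 to 0.43.

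Genes that anchor keratin filaments or regulate epithelial keratins were also compared. All 9 of the filament linkers passed the filter. Their correlations with Krt8 ran from -0.20 for Dst to 0.28 for Ppl, and with Krt18 from -0.32 for Dst to 0.17 for Ppl. With Krt19 they ran from -0.06 for Pkp2 to 0.47 for Pkp1. With ERCC scaling the linkers ran from -0.02 to 0.45 with Krt8, from -0.12 to 0.31 with Krt18 and from 0.08 to 0.56 with Krt19. Of the 9 transcription factors, none reached 0.5 in either direction with any member. The strongest was Klf5 with Krt7, at -0.40 on CPM but -0.12 with ERCC scaling, and Grhl3 had 0.26 with Krt8. Trp63 had -0.16 with Krt18, 0.22 with Krt19 and -0.17 with Krt7, and with ERCC scaling -0.02, 0.24 and -0.08.

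Markers of squamous differentiation, of the cell cycle and of other cell types were compared in the same way, beside medians over all genes tested of -0.02 to 0.01 for the 6 members. Over the 9 squamous genes that passed, the median correlation was -0.17 with Krt18, -0.08 with Krt8 and 0.13 with Krt19, the highest being Tgm1 with Krt19 at 0.41. With ERCC scaling these medians were 0.01, 0.08 and 0.17, so that the negative sign for Krt18 and Krt8 depended on scaling to the library total. Over the 8 cycling genes it was -0.24 with Krt19, with every gene between -0.32 and -0.10, and 0.13 with Krt7. With ERCC scaling it was -0.09 with Krt19, from -0.12 to 0.10, and 0.22 with Krt7. The 2 gland markers that passed, Aqp5 and Sox9, had 0.26 and 0.21 with Krt18 and 0.18 each with Krt8. Of the 2 sustentacular markers that passed, Cbr2 had 0.23 with Krt18 and 0.29 with Krt7, and Sox2 had -0.17 and -0.12, which became -0.06 and 0.05 with ERCC scaling. On CPM, no list other than the keratins and the basal markers held a gene at 0.5 or more with any member, whereas with ERCC scaling Pkp1 and Tgm1 had 0.56 and 0.52 with Krt19.

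Technical measures were set beside the members. On CPM the correlation with reads on genes was 0.27 for Krt8, 0.26 for Krt18 and 0.07 for Krt7. That with the share of mitochondrial reads was -0.26 for Krt8, and that with the number of genes counted was -0.22 for Krt19. Counts scaled to the ERCC transcripts, as used for folds between sisters, followed the share of ERCC reads more closely. Those correlations were -0.44 for Krt8, -0.38 for Krt7, -0.35 for Krt18 and -0.30 for Krt19, and the size factors come from the same ERCC reads. With the number of genes counted they were 0.31, 0.26, 0.28 and 0.14. The part of these measures in the correlations between genes and in the folds between sisters was not tested.

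Krt13 was shared by both sisters in some pairs and found in 1 sister in others. Krt13 had 10 or more reads in both daughters of 9 pairs, in 1 daughter of 9 pairs and in neither of 30. With 100 or more reads the numbers were 4, 5 and 39. In pair 15 the sisters had 1013 and 1762 reads, in pair 25 they had 1485 and 3899, in pair 41 they had 2620 and 805, and in pair 42 they had 2212 and 9962. Both sisters of these divisions thus expressed Krt13 to a like order. Other pairs were split. In pair 47 the daughters had 4724 and 0 reads. With 3 reads taken for the count of 0 this is 2991-fold after normalization, with ERCC size factors of 0.378 and 0.719. Such a fold is a limit on reads only, since reads are amplified copies. Whether a count of 0 was RNA missed in capture was not tested. In pair 17 the daughters had 6924 and 11 reads, and in pair 18 they had 0 and 305, 93.5-fold by the same rule. Pair 31 lay between, with 95 and 1255 reads.

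In pair 17 the daughter with Krt13 was also higher for Krt19, by 4.56-fold, and for Krt7, by 1.51-fold, whereas its sister was the higher for Krt8 and Krt18, by 1.27- and 1.21-fold. On the TPM scale Krt7 was 530 in the daughter with Krt13 and 494 in its sister. In pair 47 the daughter with Krt13 was also higher for Krt7, Krt8, Krt18 and Krt19, by 2.25-, 4.31-, 1.96- and 3.06-fold. On the TPM scale that daughter, the one with the lowest share of ERCC reads, had 1160 against 561 for Krt8 and 1007 against 1069 for Krt18.

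Among all genes, Krt15 was the nearest to Krt13, with a correlation of 0.43 over cells, 0.50 over pair means and 0.21 over differences between sisters. Of the 27 cells with 10 or more Krt13 reads, 25 also had 10 or more of Krt15, and their median was 150 reads. Of the 69 other cells, 40 did, with a median of 16. The highest Krt15 counts of the series, 50861 and 50335, were in the sisters of pair 15. The 2 genes were not always found together, since daughter 2 of pair 25 had 3899 reads of Krt13 and 0 of Krt15.

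**Figure D5:**
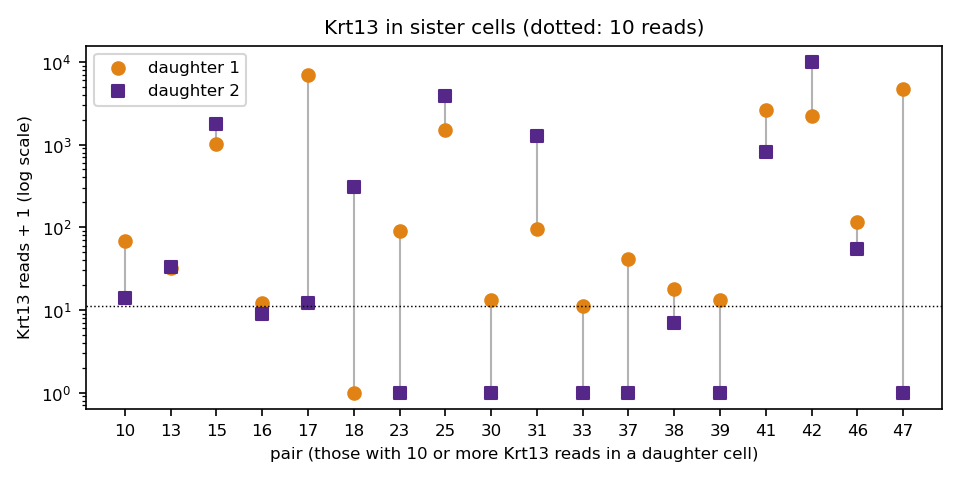
Krt13 reads + 1 on a log axis in daughter 1 (circles) and daughter 2 (squares) of the 18 pairs with 10 or more reads in a daughter, joined by a line, with 10 reads dotted. Both sisters are above 100 reads in 4 pairs, whereas in pairs 17, 18 and 47 1 sister holds 6924, 305 and 4724 reads and the other 11, 0 and 0.

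Krt4 showed no such likeness between sisters. In no pair did both daughters have 10 or more reads. In pair 3 the daughters had 0 and 2152 reads, 897-fold by the rule used for Krt13. In pair 34 they had 442 and 0, 179-fold by that rule. Neither of these 2 cells had 10 reads of Krt13, with 6 and 0. The 39 of 48 pairs apart by the 1.5-fold rule for Krt4 were mostly pairs with few reads, and 9 of them had 10 or more reads in a daughter. Of the 26 pairs apart for Krt13, 16 did. The ERCC transcripts counted in all cells lay far above the levels of Krt4 and Krt13, so that no technical error is given for these 2 genes.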

How the data were processed

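The deposited table holds unnormalized whole-number read counts by gene for each cell, and the deposited tables of each cell hold TPM. Per the study's methods and the submitters' processing notes, the authors trimmed reads with Trimmomatic 0.39, aligned read pairs of 150 bases with STAR 2.7.11a to GRCm38 with Ensembl release 100 and the ERCC sequences, and obtained counts and TPM with StringTie 2.2.1. Reads were amplified copies without molecular identifiers, so that a number of reads is not a number of RNA molecules. Intervals cover the counting of cells or pairs only. Whether counting used strand is not given in the sources used here.

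Size factors came from the ERCC transcripts by the median-of-ratios method, with the 22 of 92 that every cell had counted. Ratios between sisters used normalized counts with a pseudocount of 1, and correlations used log2(CPM + 1). Genes with 10 or more reads in at least 10% of cells formed the background of 14463 genes, and 5 of the 6 members passed this filter, Krt4 being the exception. The intraclass correlation and the Spearman calculation were tested on simulated data. Calculations used Python 3.11.15, numpy 2.4.6, pandas 2.3.3 and scipy 1.17.1, and figures matplotlib 3.10.9.

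The genes named were the members, the genes of the lists, and for each member the 5 most and the 3 least correlated genes. Neighbouring keratins outside the lists, and the pairs described singly, were chosen after their values were seen. Members and lists were chosen with earlier results of these data known. Other scalings, pseudocounts, filters and cutoffs were tried as alternatives.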

Additional observations from a re-analysis of the deposited data

How the results depend on the processing

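Of 205 recalculations under another setting, 188 stayed within the counting interval, the spread over sets or, for numbers of genes, 1.5-fold. None changed the sign of a Spearman correlation of 0.5 or more, which covers only Krt8 with Krt18 and Krt19 with Krt14. The spread over sets was the SD of values within single sets of 8 cells, and it is wide, 0.47 for Krt7 with Krt8. Large changes stayed within it, among them those of Krt19 given next, so that the 188 do not show that values were stable. The intraclass correlations of Krt7, Krt8, Krt18 and Krt13 stayed between 0.49 and 0.75 under every scaling and pseudocount tried, with set means subtracted and without pair 4. That of Krt19 ran from 0.11 with set means subtracted to 0.64 without pair 4. Leaving out each set of 8 cells in turn gave 0.49 to 0.66 for Krt7, 0.59 to 0.69 for Krt8, 0.66 to 0.79 for Krt18, 0.28 to 0.63 for Krt19, -0.07 to -0.04 for Krt4 and 0.49 to 0.77 for Krt13, and a Krt8 and Krt18 correlation of 0.66 to 0.71. The value of 0.63 for Krt19 was that without set 1, which holds pair 4. The alternatives without pair 4, without each set, and with ERCC scaling for lists of genes were chosen after seeing the data.

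With a 2-fold cutoff, 20 pairs were apart for Krt7, 7 for Krt8, 4 for Krt18 and 9 for Krt19. For Krt4, 4 pairs were apart on TPM, 17 with a pseudocount of 10 and 9 when 10 reads were asked of a daughter. For Krt13, 12 were apart on TPM and 16 when 10 reads were asked. Krt4 was found in 9 cells at 10 reads and 2 at a TPM of 1, and Krt13 in 27 and 17. The changes with a 2-fold cutoff or a read or TPM minimum follow from the stricter rule. On TPM values 1 was also added to each sister, although few cells reached a TPM of 1. With a pseudocount of 10, the number added exceeded most counts of Krt4, since 43 of its 52 cells had 1 to 9 reads. An added number larger than the values draws their ratio toward 1. How much of these changes it accounts for was not tested. With ERCC size factors, the number of genes at 0.5 or more was 2 for Krt7, 9 for Krt8 and 15 for Krt19, in place of 0, 2 and 3, and the cause was not tested. No paired analysis was possible because there was 1 group, so that no replicate number joined samples of different groups. Sisters were compared within their pairs as described.

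A Krt4 or Krt13 count under 10 reads could not be told apart from stray reads. How this depends on depth was not tested.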
